A study of Mus musculus with 8 samples.

Results

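Interferon-stimulated genes were followed in mouse leukaemia cells that kept or lacked Ezh1 and had or had not been given tamoxifen to delete Ezh2. The set was a list of 39 gene symbols, and its rows were found by symbol in the larger deposited table of 31574 genes. A row was found for 38 of the 39, and all 38 were among the 18051 genes that could be tested (at least 2 libraries above the lowest value of the scale). Ifi27 had no row under that symbol. The row with the gene identifier that RefSeq gives to Ifi27 carries the symbol Ifi27l1 and was not counted as a member.

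The libraries were made from C57BL/6 bone marrow, described as c-kit+ acute myeloid leukaemia cells in the series' design text but with no c-kit sort named in the extraction protocol, taken 7 days after treatment, with 2 libraries in each of 4 groups. The Ezh1-present oil group is Ezh1+/+ Ezh2+/+ in the labels, the Ezh1-present tamoxifen group Ezh1+/+ Ezh2-/-, the Ezh1-null oil group Ezh1-/- Ezh2+/+ and the Ezh1-null tamoxifen group Ezh1-/- Ezh2-/-. The series' design text describes the Ezh2 alleles of the oil groups as flox/flox, so all 4 groups are taken to carry the floxed gene, deleted after tamoxifen. Tamoxifen was dissolved in corn oil and injected intraperitoneally at 10 mg/kg/day for 5 doses, and the controls are labelled with corn oil. Library titles carry the prefix Moz; the recombinase, the number of animals and whether the 2 Ezh1 genotypes are separate leukaemias were not stated in the labels. Tamoxifen and loss of Ezh2 therefore cannot be told apart, nor can Ezh1 genotype and leukaemia, and each p-value measures only the spread between these libraries, which may be technical.

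Ezh1 and Ezh2 are the alternative catalytic subunits of Polycomb repressive complex 2, which marks and silences chromatin by methylating lysine 27 of histone H3. Type I interferons bind the receptor pair Ifnar1 and Ifnar2, whose kinases Jak1 and Tyk2 activate Stat proteins, Stat2 among them. Stat2 and Irf9 belong to the complex Isgf3, which binds the interferon-stimulated response element (ISRE) in promoters of interferon-stimulated genes. Their products block viral entry, replication and release, attach the ubiquitin-like protein Isg15 to other proteins, and raise or limit the response itself. In blood-forming cells interferon is known to act on growth and on the exit of stem cells from rest.

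The letters of these response elements were looked for in the RefSeq promoter windows (GRCm38.p6, 250 bases before to 50 after a start), of which 30 of the 38 members had at least 1. The ISRE core (GAAA, any 2 bases and GAAA, or on the other strand TTTC, any 2 bases and TTTC, overlapping matches allowed) stood in the windows of 11 of these 30 genes (36.7%), against 3.99% of the 27025 genes in the RefSeq table and 3.44% of its 32851 windows. The gamma-activated site (TTC, any 3 bases and GAA), which reads the same on both strands, stood in 7 of the 30 (23.3%), against 9.55% of all genes. A match is a run of letters and not a measured binding site. The stretches upstream of the start are shown for 6 genes with a match that rose after tamoxifen, picked with their values known. Parp12, which also rose, had no match, and Ifi27l2a, which rose too, had no window. Each stretch is written 5′ to 3′ on the gene's strand with the matched letters in capitals.
Isg15 (chr4:156200860-156200911, minus strand): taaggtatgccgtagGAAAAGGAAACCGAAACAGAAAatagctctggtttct
Rsad2 (chr12:26456548-26456587, minus strand): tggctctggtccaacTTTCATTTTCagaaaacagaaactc
Ddx60 (chr8:61928019-61928086, plus strand): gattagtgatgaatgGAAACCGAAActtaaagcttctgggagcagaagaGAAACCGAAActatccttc
Ifit1 (chr19:34640770-34640828, plus strand): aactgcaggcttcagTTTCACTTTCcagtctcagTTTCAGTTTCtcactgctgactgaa
Ifit3 (chr19:34583358-34583431, plus strand): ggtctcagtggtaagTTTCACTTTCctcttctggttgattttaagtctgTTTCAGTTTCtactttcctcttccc
Bst2 (chr8:71537572-71537617, minus strand): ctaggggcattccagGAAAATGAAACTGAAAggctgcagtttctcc
Isg15 held 3 overlapping matches within one run, the nearest ending 56 bases before the start. Ddx60 held 2 separate matches, the nearer ending 9 bases before the start. Ifit1 and Ifit3 also held 2 separate matches each. Those of Rsad2, Ifit1 and Ifit3 read TTTC, the other strand's letters. Stat2, the interferon-activated transcription factor, and Ifitm2, an antiviral membrane protein, held 1 match each, shown because their values did not follow those of the 6 genes above.
Stat2 (chr10:128270261-128270300, plus strand): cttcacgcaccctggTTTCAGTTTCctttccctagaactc
Ifitm2 (chr7:140955983-140956022, minus strand): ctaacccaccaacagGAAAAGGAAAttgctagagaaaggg

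Each value below is on a log2 scale: normalized reads were set to at least 1, logged, and centred by the authors so that each gene has a median of 0. A value of 0 is thus the gene's own middle library, values of different genes cannot be compared as levels, and changes are differences of group means on this log2 scale, given ± the limma standard error with 2 libraries a group. A gene was called where its limma p, adjusted by Benjamini-Hochberg over the 18051 genes, lay under 0.05. Ezh1 read 1.71 and 1.66 in Ezh1-present oil, 1.55 and 1.63 in Ezh1-present tamoxifen, -1.75 and -1.94 in Ezh1-null oil and -1.61 and -1.55 in Ezh1-null tamoxifen, so both Ezh1-null groups lay far below both others. Ezh2 read 0.25 and 0.23 in Ezh1-present oil, 0.09 and 0.03 in Ezh1-present tamoxifen, -0.12 and -0.03 in Ezh1-null oil and -0.53 and -0.56 in Ezh1-null tamoxifen, a mean tamoxifen change of -0.33 ± 0.06 (adjusted p = 0.0466). It was lowest in the Ezh1-null tamoxifen libraries, and its change in Ezh1-present cells (-0.18 ± 0.08, adjusted p = 0.293) was not called. The labels do not say which part of Ezh2 is deleted, so the row may not check the deletion. Its Ezh1-present tamoxifen libraries read above both Ezh1-null oil libraries, whose label is Ezh2+/+. The words intact, single-deletion and doubly deleted below follow the labels. The normalized value of 1 read, a rough measure of relative depth, ran from 0.748 to 1.24 over the libraries, where a higher value means fewer reads. All 12 listed genes of c-kit+ myeloid leukaemia cells, Kit and Mpo among them, lay above the floor in all 8 libraries.

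Across the 4 groups the median of the interferon-stimulated genes was lowest in the libraries labelled intact for Ezh1 and Ezh2 and highest in those labelled as lacking both. The median over the 38 genes was -0.49 and -0.49 in the Ezh1-present oil libraries, -0.06 and 0.15 in Ezh1-present tamoxifen, -0.09 and -0.16 in Ezh1-null oil, and 0.69 and 0.94 in Ezh1-null tamoxifen. The Ezh1-null tamoxifen group had the highest mean for 33 genes and the Ezh1-present oil group the lowest for 26 (for the other 12 another group was lowest). Both Ezh1-null tamoxifen libraries lay above the other 6 for 30 genes, against 7.81% of all tested genes. Both Ezh1-present oil libraries lay below the other 6 for 18 genes, against 12.4% of all tested genes. From the intact to the doubly deleted group the median change was 1.25 (all tested genes -0.0018), and it was above 0 for 36 genes. Rtp4, which helps receptors to the cell surface, differed by 5.56 (47.2-fold) and Ddx60, an RNA helicase, by 3.99 (15.9-fold). The exceptions were Ifitm1 (-1.14), a membrane protein that hinders viral entry, and Stat2 (-0.35). In bulk RNA of this kind, fewer cells with a high level and a lower level in every cell cannot be told apart.

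**Figure D1:**
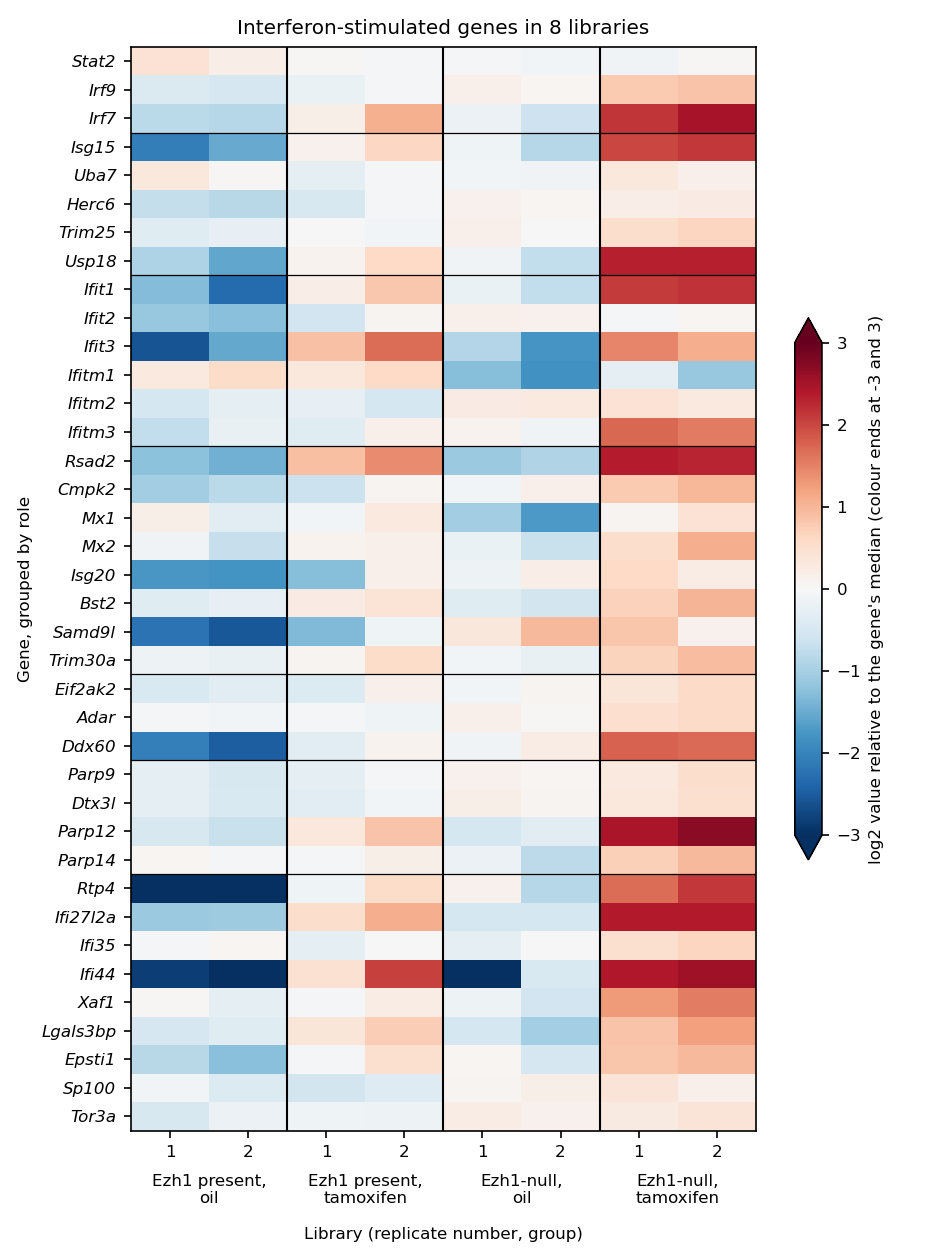
Heat map of the log2 value of each of the 38 genes (rows, grouped by role) in each of the 8 libraries (columns, replicates 1 and 2 of 4 groups), relative to the gene's median, with colours ending at -3 and 3. Most rows are blue in the Ezh1-present oil libraries and darkest red in the Ezh1-null tamoxifen libraries, whose medians over the genes were 0.69 and 0.94.

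Tamoxifen, which marks loss of Ezh2, was followed by calls of higher values in 4 interferon-stimulated genes among Ezh1-present cells and 13 among Ezh1-null cells, and by no call of a lower value. In Ezh1-present cells 4 of 38 rose (10.5%), namely Rsad2, Ifi27l2a, Ddx60 and Rtp4, against 0.637% of all tested genes called higher and 0.903% called in either direction (0.266% lower). In Ezh1-null cells 13 of 38 rose (34.2%, against 3.1% of all tested genes higher, 0.299% lower and 3.4% either way). In the mean of both changes 18 rose (47.4%, against 4.28% higher, 1.03% lower and 5.31% either way). No member was called lower in any of the 3, and at an unadjusted limma p under 0.05 there were 21, 25 and 28 members, against 20.6%, 17.9% and 24.6% of all tested genes.

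The median change over the 38 genes was 0.52 in Ezh1-present cells, 1.03 in Ezh1-null cells and 0.77 in the mean of both, where the medians over all tested genes were 0.0145, 0 and 0.0101. The change was above 0 for 33, 36 and 35 of the 38. Both tamoxifen libraries lay above both oil libraries for 25 genes in Ezh1-present cells (against 28.5% of all tested genes) and for 34 genes in Ezh1-null cells (against 24.5%). The counts of calls moved when 1 library was left out, also where that library was in neither group compared. In Ezh1-present cells the members' median change stayed at 0.52 without any 1 of the Ezh1-null libraries. All 4 groups share the spread in the fit, so leaving out any library also weakens the test. A lost call therefore does not by itself show that a result rested on the library dropped. In Ezh1-present cells leaving out 1 library gave 0 calls, except 6 without Ezh1-present tamoxifen replicate 1 and 2 without replicate 2. In Ezh1-null cells it gave 8 and 3 calls when an oil library (replicate 1 or 2) was dropped, 4 and 3 when a tamoxifen library was, and 9 to 10 for an Ezh1-present library. For the mean change it gave 7 and 9 without Ezh1-present oil replicates 1 and 2, 18 and 7 without Ezh1-present tamoxifen, 14 and 10 without Ezh1-null oil, and 6 and 4 without Ezh1-null tamoxifen. Rsad2, Ddx60, Ifi27l2a and Parp12 were called in the mean change in all 8 leave-one-out fits, Irf9, Xaf1, Ifitm3 and Trim30a in 1 and Epsti1 in none. Of all genes called in Ezh1-null cells 560 rose and 54 fell, but after quantile normalization 342 rose and 115 fell; for the mean change the split moved from 772 and 186 to 614 and 296.

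**Figure D2:**
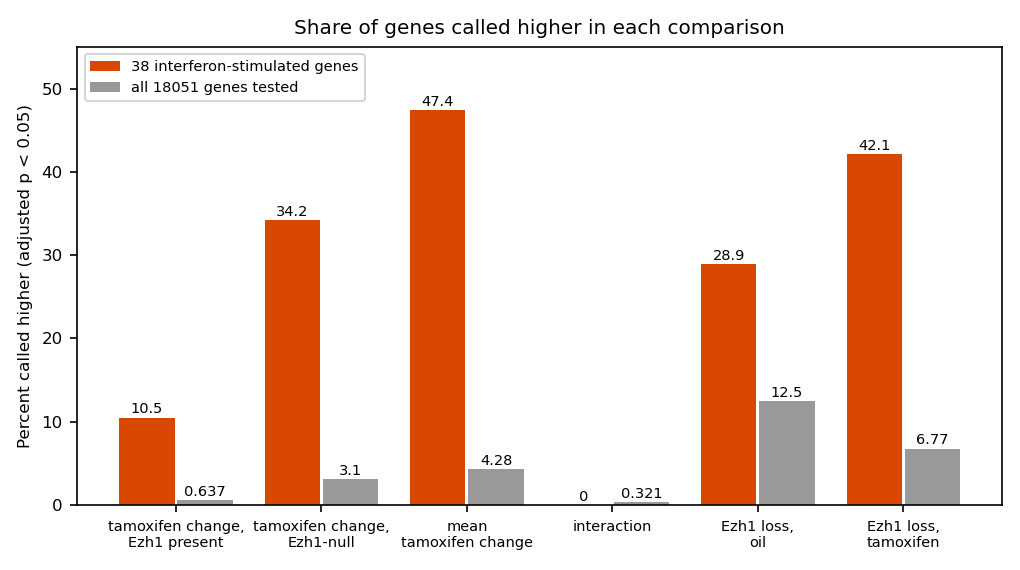
Bars give the percent of genes called higher (limma, adjusted p under 0.05) in each of 6 comparisons, for the 38 interferon-stimulated genes (orange) and all 18051 tested genes (grey). The orange bar stands above the grey bar in every comparison but the interaction, where no member was called.

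Among the transcription factors Irf7 and Irf9 rose and Stat2 was not called. Irf7, the factor that amplifies interferon production (chr7:141263183-141266424 in mm10), read -0.82 and -0.87 in Ezh1-present oil, 0.19 and 1.07 in Ezh1-present tamoxifen, -0.19 and -0.61 in Ezh1-null oil and 2.15 and 2.48 in Ezh1-null tamoxifen. The Ezh1-null tamoxifen pair lay above all others, and the Ezh1-present tamoxifen pair lay above both oil groups but 0.88 apart from each other. Its change was 2.71 ± 0.33 (adjusted p = 0.022) in Ezh1-null cells (6.56-fold) and 1.47 ± 0.33 (adjusted p = 0.11) in Ezh1-present cells. The call in Ezh1-null cells held in 2 of the 8 leave-one-out fits. Irf9, the DNA-binding part of Isgf3, read -0.42 and -0.50 in Ezh1-present oil, -0.21 and -0.06 in Ezh1-present tamoxifen, 0.15 and 0.06 in Ezh1-null oil and 0.80 and 0.86 in Ezh1-null tamoxifen, with no overlap between any of the 4 groups. Its change was 0.73 ± 0.10 (adjusted p = 0.0286) in Ezh1-null cells, and that call held in 2 of the 8 fits that each left out 1 library. Stat2 read 0.44 and 0.20 in Ezh1-present oil, 0.04 and -0.04 in Ezh1-present tamoxifen, -0.04 and -0.09 in Ezh1-null oil and -0.10 and 0.04 in Ezh1-null tamoxifen, highest in the intact libraries and level elsewhere, with a mean change of -0.14 ± 0.08 (adjusted p = 0.361).

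The Isg15 system, which tags proteins with Isg15 and takes the tag off again, rose in its tag and in the protease that removes it, and the member enzymes Uba7, Herc6 and Trim25 were not called. Isg15 itself (chr4:156199424-156200818) read -2.08 and -1.50 in Ezh1-present oil, 0.13 and 0.62 in Ezh1-present tamoxifen, -0.13 and -0.85 in Ezh1-null oil and 1.99 and 2.12 in Ezh1-null tamoxifen. Its tamoxifen groups lay above their oil groups in both genotypes, and its mean change was 2.36 ± 0.24 (adjusted p = 0.0136, 5.12-fold). Usp18, the protease that removes Isg15 and dampens receptor signalling, read -0.92 and -1.57 in Ezh1-present oil, 0.11 and 0.59 in Ezh1-present tamoxifen, -0.11 and -0.73 in Ezh1-null oil and 2.34 and 2.32 in Ezh1-null tamoxifen. The Ezh1-null tamoxifen pair agreed closely and stood well above every other library, and the change in Ezh1-null cells was 2.75 ± 0.32 (adjusted p = 0.0208, 6.74-fold). The activating enzyme Uba7 and the ligases Herc6 and Trim25 were not called after tamoxifen, with mean changes of -0.0027, 0.32 and 0.38.

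Of the Ifit proteins, which hold back foreign RNA, Ifit1 and Ifit3 rose and Ifit2 was not called. Ifit3 read -2.59 and -1.54 in Ezh1-present oil, 0.89 and 1.68 in Ezh1-present tamoxifen, -0.89 and -1.77 in Ezh1-null oil and 1.47 and 1.08 in Ezh1-null tamoxifen, and each tamoxifen pair lay above both oil pairs. It was the one Ifit gene whose highest library was Ezh1-present tamoxifen replicate 2, and its mean change was 2.97 ± 0.36 (adjusted p = 0.0193, 7.85-fold), called in 3 of the 8 leave-one-out fits. Ifit1 (chr19:34640889-34650009) read -1.31 and -2.31 in Ezh1-present oil, 0.21 and 0.82 in Ezh1-present tamoxifen, -0.21 and -0.73 in Ezh1-null oil and 2.09 and 2.17 in Ezh1-null tamoxifen, lowest in the intact libraries, which lay 1.01 apart. Its mean change was 2.46 ± 0.29 (adjusted p = 0.0178), and this call held in 4 of the 8 leave-one-out fits. The row of Ifit1 lies within that of 2010002M12Rik on the genome, so its reads may be shared, which was not tested. Ifit2 read -1.14 and -1.25 in Ezh1-present oil, -0.58 and 0.09 in Ezh1-present tamoxifen, 0.16 and 0.12 in Ezh1-null oil and -0.05 and 0.05 in Ezh1-null tamoxifen, low only in the intact libraries and in Ezh1-present tamoxifen replicate 1. Its mean change was 0.41 ± 0.16 (adjusted p = 0.198).

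The Ifitm proteins sit in membranes and hinder viral fusion, and the 3 members had different patterns over the libraries. Ifitm3 read -0.73 and -0.22 in Ezh1-present oil, -0.35 and 0.14 in Ezh1-present tamoxifen, 0.11 and -0.11 in Ezh1-null oil and 1.73 and 1.55 in Ezh1-null tamoxifen, so the Ezh1-null tamoxifen pair stood well above the other 6 libraries. Its change in Ezh1-null cells was 1.64 ± 0.25 (adjusted p = 0.0384), against 0.37 ± 0.25 (adjusted p = 0.458) in Ezh1-present cells. The former call held in none of the 8 leave-one-out fits. Ifitm2 read -0.53 and -0.30 in Ezh1-present oil, -0.26 and -0.54 in Ezh1-present tamoxifen, 0.26 and 0.29 in Ezh1-null oil and 0.44 and 0.30 in Ezh1-null tamoxifen, split by Ezh1 genotype. Its oil and tamoxifen pairs overlapped in Ezh1-present cells and lay narrowly apart in Ezh1-null cells. Its mean tamoxifen change was 0.06 ± 0.10 (-0.11 after quantile normalization). Ifitm1 read 0.29 and 0.56 in Ezh1-present oil, 0.33 and 0.59 in Ezh1-present tamoxifen, -1.28 and -1.81 in Ezh1-null oil and -0.29 and -1.13 in Ezh1-null tamoxifen, also split by Ezh1 genotype but in the other direction. Its mean tamoxifen change was 0.43 ± 0.24 (adjusted p = 0.33).

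Among the other antiviral effectors, Rsad2 gave the smallest p of all members in the mean tamoxifen change. Rsad2, also known as viperin, makes a chain-terminating nucleotide that stops viral polymerases (chr12:26442743-26456452). It read -1.23 and -1.43 in Ezh1-present oil, 0.91 and 1.43 in Ezh1-present tamoxifen, -1.10 and -0.91 in Ezh1-null oil and 2.35 and 2.29 in Ezh1-null tamoxifen, so both tamoxifen groups lay above both oil groups with no overlap. The change was 2.50 ± 0.20 (adjusted p = 0.0242) in Ezh1-present cells, 3.33 ± 0.20 (adjusted p = 0.00563) in Ezh1-null cells and 2.91 ± 0.14 (adjusted p = 0.00336) in the mean of both (7.54-fold). The mean change and the change in Ezh1-null cells were called in all 8 leave-one-out fits, while the change in Ezh1-present cells was called in 2 of them. Bst2, or tetherin, holds budding virus on the cell and read -0.37 and -0.24 in Ezh1-present oil, 0.24 and 0.41 in Ezh1-present tamoxifen, -0.37 and -0.56 in Ezh1-null oil and 0.68 and 1.01 in Ezh1-null tamoxifen. Its tamoxifen pairs lay above both oil pairs, and the mean change was 0.97 ± 0.11 (adjusted p = 0.0166), called in 3 of the 8 leave-one-out fits. Trim30a, which limits Toll-like receptor signalling, read -0.15 and -0.23 in Ezh1-present oil, 0.08 and 0.55 in Ezh1-present tamoxifen, -0.08 and -0.22 in Ezh1-null oil and 0.67 and 0.92 in Ezh1-null tamoxifen, with a mean change of 0.73 ± 0.13 (adjusted p = 0.047) that was called in 1 of the 8 leave-one-out fits.

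Cmpk2, the neighbour of Rsad2 that makes nucleotides for it, was not called, with a mean change of 0.75 ± 0.19 (adjusted p = 0.0913). The Mx proteins are GTPases that trap viral components. Mx1 read 0.16 and -0.31 in Ezh1-present oil, -0.09 and 0.29 in Ezh1-present tamoxifen, -1.05 and -1.72 in Ezh1-null oil and 0.09 and 0.44 in Ezh1-null tamoxifen, so it was low in the Ezh1-null oil pair and near 0 in the other 3 groups. Its change in Ezh1-null cells was 1.65 ± 0.31 (adjusted p = 0.0627). Mx2 had a change of 1.23 ± 0.30 (adjusted p = 0.11) there. The exonuclease Isg20 and the growth regulator Samd9l had mean changes of 0.80 ± 0.33 and 0.74 ± 0.34, neither of them called.

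**Figure D3:**
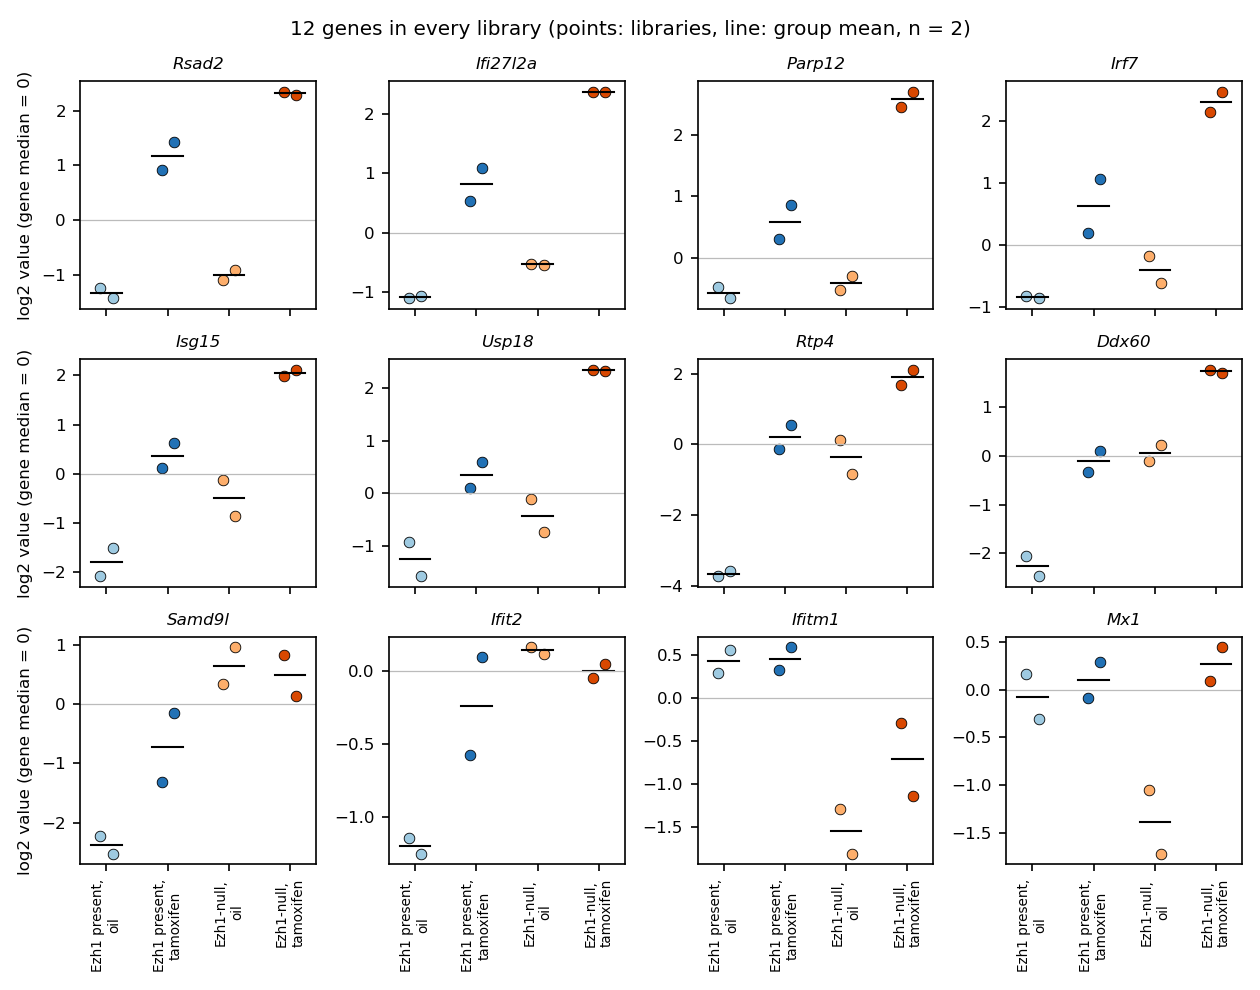
Log2 values (vertical axes, gene median at 0) of 12 genes in the 4 groups, with 1 point per library and a line at the group mean. Rsad2, Ifi27l2a and Parp12 are highest in the 2 Ezh1-null tamoxifen libraries, while Samd9l and Ifit2 are lowest in the 2 Ezh1-present oil libraries, and Ifitm1 and Mx1 are lowest in the 2 Ezh1-null oil libraries.

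Ddx60, a helicase that aids the sensing of viral RNA (chr8:61928089-62037695), was the one gene of the double-stranded RNA group called after tamoxifen. It read -2.06 and -2.47 in Ezh1-present oil, -0.33 and 0.10 in Ezh1-present tamoxifen, -0.10 and 0.23 in Ezh1-null oil and 1.76 and 1.69 in Ezh1-null tamoxifen. The intact libraries lay far below the rest, the single-deletion groups overlapped near 0, and the doubly deleted pair stood highest. Its change was 2.15 ± 0.23 (adjusted p = 0.0357) in Ezh1-present cells and 1.66 ± 0.23 (adjusted p = 0.0298) in Ezh1-null cells, and the mean change of 1.91 ± 0.16 (3.75-fold, adjusted p = 0.011) was called in all 8 leave-one-out fits. The call in Ezh1-present cells held in 1 of them and that in Ezh1-null cells in 4. Eif2ak2, the kinase that stops translation when it binds double-stranded RNA, had a mean change of 0.37 ± 0.15 (adjusted p = 0.206). Adar, which edits adenosines in double-stranded RNA, had a mean change of 0.20 ± 0.06 (adjusted p = 0.131).

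Parp12, which adds ADP-ribose to proteins and blocks viral translation (chr6:39086412-39118349), was the one Parp gene called. It read -0.47 and -0.67 in Ezh1-present oil, 0.31 and 0.86 in Ezh1-present tamoxifen, -0.53 and -0.31 in Ezh1-null oil and 2.45 and 2.70 in Ezh1-null tamoxifen. The doubly deleted pair stood 1.59 above the next library, and the Ezh1-present tamoxifen pair lay above both oil pairs. Its change in Ezh1-null cells was 2.99 ± 0.22 (adjusted p = 0.007, 7.96-fold), called in all 8 leave-one-out fits. In Ezh1-present cells it was 1.15 ± 0.22 (adjusted p = 0.0891). Parp14 had a change of 1.32 ± 0.23 (adjusted p = 0.0517) in Ezh1-null cells. Parp9 and its partner ligase Dtx3l, whose rows overlap on the genome, had mean changes of 0.27 ± 0.10 and 0.22 ± 0.09, neither called.

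The remaining members held 6 of the 18 calls of the mean change. Ifi27l2a, a small hydrophobic membrane protein (chr12:103433873-103443680), read -1.11 and -1.07 in Ezh1-present oil, 0.54 and 1.09 in Ezh1-present tamoxifen, -0.54 and -0.54 in Ezh1-null oil and 2.38 and 2.37 in Ezh1-null tamoxifen. The replicates lay at most 0.0447 apart in 3 groups, both tamoxifen pairs lay above both oil pairs, and the mean change was 2.41 ± 0.13 (adjusted p = 0.00438, 5.3-fold). It was called in both genotypes, at 1.90 ± 0.19 (adjusted p = 0.0319) and 2.91 ± 0.19 (adjusted p = 0.00647), the former in 2 and the latter in 8 of the 8 leave-one-out fits. The row of Ifi27l1 lies within its own, and the strand used in counting is not given, so reads of the pair may be shared. Ifi27l1 read -1.48 and -1.50 in Ezh1-present oil, -0.64 and -0.17 in Ezh1-present tamoxifen, 0.17 and 0.32 in Ezh1-null oil and 0.70 and 0.69 in Ezh1-null tamoxifen, a different order from that of Ifi27l2a, with the Ezh1-null oil libraries above the Ezh1-present tamoxifen libraries. Ifi27l1 was called higher in the mean tamoxifen change, at 0.77 ± 0.12 (adjusted p = 0.0343). With loss of Ezh1 it was called higher by 1.74 ± 0.17 (adjusted p = 0.00426) in oil and 1.10 ± 0.17 (adjusted p = 0.0236) after tamoxifen.

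Rtp4 (chr16:23609919-23614222) read -3.74 and -3.59 in Ezh1-present oil, -0.13 and 0.54 in Ezh1-present tamoxifen, 0.13 and -0.85 in Ezh1-null oil and 1.68 and 2.12 in Ezh1-null tamoxifen. The intact libraries lay at least 2.74 below any other, and its change in Ezh1-present cells was the widest called there at 3.87 ± 0.40 (adjusted p = 0.0357, 14.6-fold), called in 1 of the 8 leave-one-out fits. Ifi44, a protein named for its induction by interferon, read -2.81 and -3.65 in Ezh1-present oil, 0.45 and 2.04 in Ezh1-present tamoxifen, -3.65 and -0.45 in Ezh1-null oil and 2.39 and 2.55 in Ezh1-null tamoxifen. Ezh1-present oil replicate 2 and Ezh1-null oil replicate 1 lay at the floor, and the tamoxifen libraries held 22.97, 50.92, 61.92 and 67.41 reads as estimated from the value of 1 read. The mean change of 4.50 ± 0.80 (adjusted p = 0.0449) was called in 2 of the 8 leave-one-out fits, and neither genotype's change was called alone.

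Xaf1, which promotes cell death, read 0.04 and -0.27 in Ezh1-present oil, -0.04 and 0.23 in Ezh1-present tamoxifen, -0.14 and -0.58 in Ezh1-null oil and 1.29 and 1.55 in Ezh1-null tamoxifen. It was highest in the Ezh1-null tamoxifen pair, and its change was 1.78 ± 0.22 (adjusted p = 0.0224) in Ezh1-null cells and 0.21 ± 0.22 (adjusted p = 0.63) in Ezh1-present cells. Lgals3bp, a secreted galectin-binding protein, read -0.51 and -0.37 in Ezh1-present oil, 0.37 and 0.75 in Ezh1-present tamoxifen, -0.53 and -1.03 in Ezh1-null oil and 0.86 and 1.23 in Ezh1-null tamoxifen, with both tamoxifen pairs above both oil pairs. Its mean change was 1.41 ± 0.17 (adjusted p = 0.0191), called in 3 of the 8 leave-one-out fits. Epsti1 read -0.82 and -1.27 in Ezh1-present oil, -0.06 and 0.49 in Ezh1-present tamoxifen, 0.06 and -0.49 in Ezh1-null oil and 0.83 and 0.96 in Ezh1-null tamoxifen, and its mean change of 1.19 ± 0.21 (adjusted p = 0.0428) was called in none of the 8 leave-one-out fits. Ifi35, Sp100 and Tor3a were not called, with mean changes of 0.28 ± 0.11, -0.04 ± 0.12 and 0.17 ± 0.09.

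The promoter letters were set beside these changes as a description. Of the 11 members with an ISRE core in a window, 8 were called higher in the mean tamoxifen change, with a median change of 1.00. Of the 19 with windows but no match the count was 7, with a median of 0.53, and of the 8 with no window it was 3. Among all tested genes 4.28% were called higher in that change. The share among all genes with the core was not counted, so no link of the letters to the rise is read from this. Irf7, Parp12 and Xaf1 rose without the letters in these windows, and Stat2, Ifitm2 and Eif2ak2 held them and were not called. Isg15, with 3 overlapping matches, changed by 2.36 and Rsad2, with 1, by 2.91.

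Whether the tamoxifen change differed between the Ezh1 genotypes was tested as an interaction, Ezh1-null change minus Ezh1-present change. None of the 38 genes was called by limma, against 0.476% of all tested genes (86 of them, 58 higher and 28 lower, or 20 and 17 after quantile normalization), and 16 members had an unadjusted p under 0.05, against 14.9% of all tested genes. The interaction was above 0 for 29 of the 38, with a median of 0.37 (all tested genes -0.0029). It was widest upward for Parp12 at 1.84 ± 0.31 (adjusted p = 0.102), Xaf1 at 1.57 ± 0.31 (adjusted p = 0.132) and Mx1 at 1.48 ± 0.44 (adjusted p = 0.242). It was widest downward for Samd9l at -1.81 ± 0.68 (adjusted p = 0.318), Rtp4 at -1.61 ± 0.57 (adjusted p = 0.297) and Ifit2 at -1.10 ± 0.32 (adjusted p = 0.234). For no single gene, therefore, is the larger number of calls among Ezh1-null libraries shown to be a difference between genotypes.

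**Figure D4:**
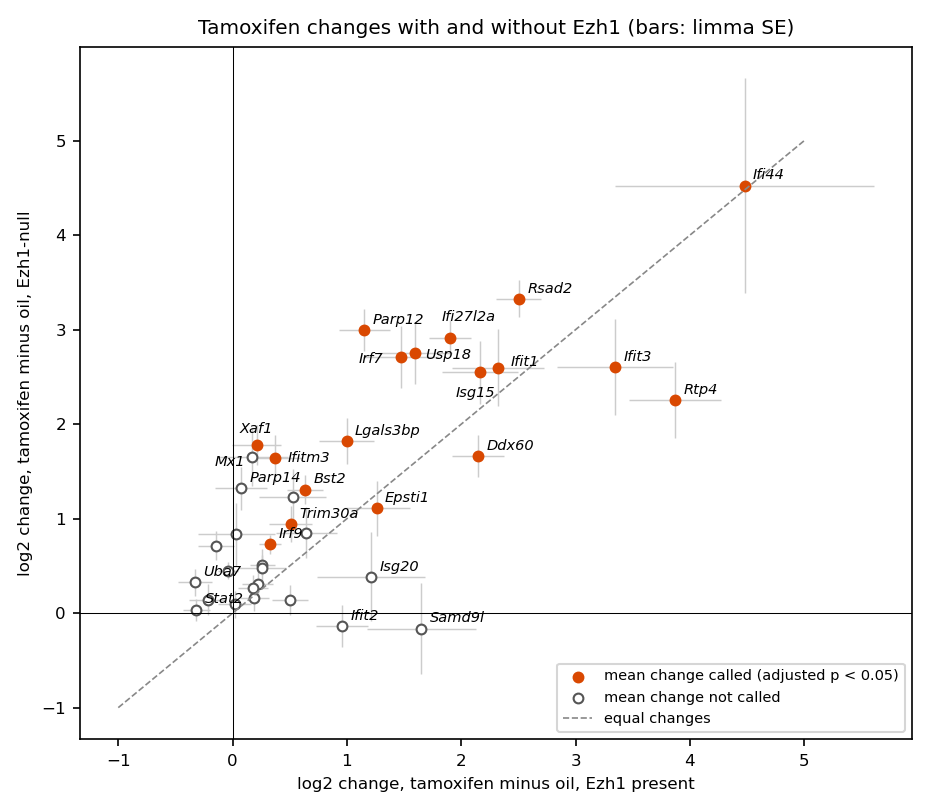
Each point is 1 of the 38 genes, placed by its log2 tamoxifen change in Ezh1-present cells (horizontal) and in Ezh1-null cells (vertical), with limma standard errors as bars and filled where the mean change was called. Rsad2, Parp12, Ifi27l2a and Xaf1 lie above the dashed line of equal changes, Rtp4, Ddx60 and Samd9l below it, and no gene's distance from the line passed the interaction test.

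Loss of Ezh1 was compared in oil libraries, where Ezh2 was not deleted, and in tamoxifen libraries. In oil 11 of 38 rose (28.9%), against 12.5% of all tested genes called higher, and 2 fell, against 12.4% called lower (24.9% either way). The change was largest for Rtp4 and Samd9l among those that rose, and Ifitm1 and Mx1 were those that fell. After tamoxifen 16 of 38 rose (42.1%, against 6.77% higher, 5.44% lower and 12.2% either way) and none fell, with 29 members at an unadjusted limma p under 0.05, against 32.3% of all tested genes. The median change was 0.48 in oil and 0.72 after tamoxifen, where all tested genes had medians of -0.04 and -0.0023.

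Both Ezh1-null libraries lay above both Ezh1-present libraries for 24 genes in oil (against 31.0% of all tested genes) and for 33 after tamoxifen (against 30.7%). Both lay below for 6 genes in oil (against 34.7%) and for 1, Ifitm1, after tamoxifen (against 31.8%). Leaving out 1 library moved the count of calls in oil, both directions together, from 13 to 2 and 3 without Ezh1-present oil replicates 1 and 2, to 5 and 2 when replicate 1 or 2 of Ezh1-null oil was dropped, and to 8 without either Ezh1-null tamoxifen library. After tamoxifen it moved from 16 to 8 without either Ezh1-present oil library, to 3 and 9 without Ezh1-present tamoxifen replicates 1 and 2, to 10 without either Ezh1-null oil library and to 0 without either Ezh1-null tamoxifen library. No call after tamoxifen held in more than 6 of the 8 leave-one-out fits, and those of Ifitm2, Dtx3l, Ifi35 and Sp100 held in none. The oil groups are shared with the tamoxifen comparisons above, so each gene's changes are given side by side and not correlated.

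**Figure D5:**
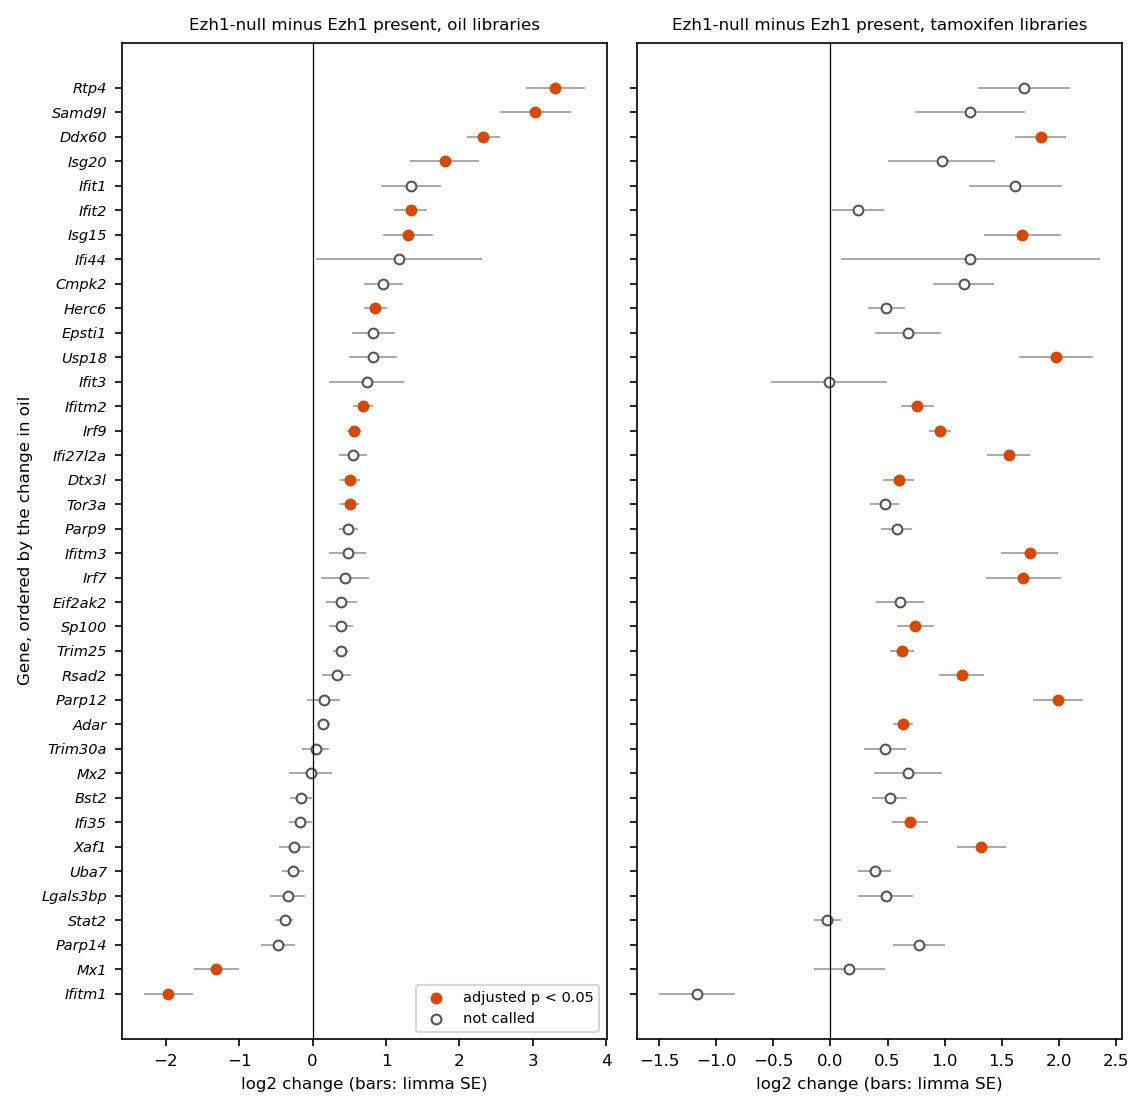
Log2 changes, Ezh1-null minus Ezh1-present, of the 38 genes (rows, ordered by the change in oil) in the oil libraries (left) and the tamoxifen libraries (right), with limma standard errors as bars and filled points where adjusted p lay under 0.05. Rtp4, Samd9l and Ddx60 head the oil panel and Mx1 and Ifitm1 close it, while Parp12 and Usp18 lie farthest right in the tamoxifen panel.

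Ddx60 and Rtp4 gave the oil calls that held in all 8 leave-one-out fits. Ddx60 was higher by 2.33 ± 0.23 (adjusted p = 0.00409) in oil (5.01-fold) and by 1.84 ± 0.23 (adjusted p = 0.0155) after tamoxifen. Rtp4 was higher by 3.30 ± 0.40 (adjusted p = 0.00662) in oil (9.88-fold), and after tamoxifen the change was 1.69 ± 0.40 (adjusted p = 0.0556). For both genes the intact pair was the low one, and the Ezh1-null oil pair lay close to the Ezh1-present tamoxifen pair.

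Of the members 7 rose with loss of Ezh1 in oil and were called in no tamoxifen change (18.4%, against 11.5% of all tested genes, so nothing particular to the members is read from it): Samd9l, Isg20, Ifit2, Herc6, Ifitm2, Dtx3l and Tor3a. Samd9l, which restrains translation and cell growth, read -2.23 and -2.53 in Ezh1-present oil, -1.32 and -0.14 in Ezh1-present tamoxifen, 0.34 and 0.97 in Ezh1-null oil and 0.84 and 0.14 in Ezh1-null tamoxifen. The intact pair lay lowest, both Ezh1-null groups lay above 0, and the oil change was 3.04 ± 0.48 (adjusted p = 0.0125, 8.2-fold). Isg20, an exonuclease that degrades RNA, read -1.76 and -1.80 in Ezh1-present oil, -1.27 and 0.15 in Ezh1-present tamoxifen, -0.15 and 0.20 in Ezh1-null oil and 0.59 and 0.23 in Ezh1-null tamoxifen, so its Ezh1-present tamoxifen libraries lay 1.42 apart. Its oil change was 1.80 ± 0.47 (adjusted p = 0.0471). Ifit2, whose values are given above, was higher by 1.34 ± 0.23 (adjusted p = 0.0145) in oil, and after tamoxifen the change was 0.24 ± 0.23 (adjusted p = 0.503). Herc6, the mouse ligase for Isg15, read -0.71 and -0.83 in Ezh1-present oil, -0.49 and -0.05 in Ezh1-present tamoxifen, 0.12 and 0.05 in Ezh1-null oil and 0.21 and 0.24 in Ezh1-null tamoxifen, with an oil change of 0.86 ± 0.16 (adjusted p = 0.0194). Its Ezh1-null libraries, oil and tamoxifen alike, all lay above its Ezh1-present libraries. Over these 7 genes the oil call held in 1 to 5 of the 8 leave-one-out fits.

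Smaller rises in Ifitm2, Dtx3l, Tor3a and Irf9 were also split by Ezh1 genotype. Ifitm2 was higher by 0.69 ± 0.14 (adjusted p = 0.0256) in oil and by 0.76 ± 0.14 (adjusted p = 0.0339) after tamoxifen. Dtx3l read -0.30 and -0.47 in Ezh1-present oil, -0.33 and -0.08 in Ezh1-present tamoxifen, 0.18 and 0.08 in Ezh1-null oil and 0.32 and 0.47 in Ezh1-null tamoxifen, and was higher by 0.51 ± 0.13 (adjusted p = 0.0477) and 0.60 ± 0.13 (adjusted p = 0.0494) in the same order. Tor3a, an ATPase of the endoplasmic reticulum, read -0.48 and -0.18 in Ezh1-present oil, -0.13 and -0.15 in Ezh1-present tamoxifen, 0.23 and 0.13 in Ezh1-null oil and 0.28 and 0.39 in Ezh1-null tamoxifen, with an oil change of 0.51 ± 0.13 (adjusted p = 0.0432). In all 3 genes every Ezh1-null library lay above every Ezh1-present library. Irf9 was higher by 0.56 ± 0.10 (adjusted p = 0.0157) in oil and by 0.96 ± 0.10 (adjusted p = 0.0113) after tamoxifen. Isg15 was higher by 1.30 ± 0.34 (adjusted p = 0.0453) in oil, a call that held in none of the 8 leave-one-out fits, and by 1.68 ± 0.34 (adjusted p = 0.0386) after tamoxifen. Its Ezh1-null oil libraries lay below its Ezh1-present tamoxifen libraries, so Isg15 was not split by genotype.

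The genes that fell in oil were Ifitm1, with a change of -1.97 ± 0.33 (adjusted p = 0.0149, 3.92-fold lower), and Mx1, with -1.31 ± 0.31 (adjusted p = 0.0358, 2.48-fold lower). After tamoxifen the change of Ifitm1 was -1.17 ± 0.33 (adjusted p = 0.0813), with no overlap between the groups. That of Mx1 was 0.17 ± 0.31 (adjusted p = 0.749), with overlapping groups. The Mx1 call held in 1 of the 8 leave-one-out fits.

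After tamoxifen the widest Ezh1 differences were those of Parp12 at 1.99 ± 0.22 (adjusted p = 0.0129), Usp18 at 1.98 ± 0.32 (adjusted p = 0.0264) and Ddx60. Ifitm3 was higher by 1.74 ± 0.25 (adjusted p = 0.0204), Irf7 by 1.69 ± 0.33 (adjusted p = 0.0362), Ifi27l2a by 1.56 ± 0.19 (adjusted p = 0.0148), Xaf1 by 1.32 ± 0.22 (adjusted p = 0.0264) and Rsad2 by 1.15 ± 0.20 (adjusted p = 0.0287). Apart from Ddx60, none of these was called in oil. The calls of Irf7 and Rsad2 after tamoxifen each held in 1 of the 8 leave-one-out fits. Adar, Trim25, Ifi35 and Sp100 were called here and in no other comparison. Adar read -0.04 and -0.07 in Ezh1-present oil, -0.07 and -0.12 in Ezh1-present tamoxifen, 0.15 and 0.04 in Ezh1-null oil and 0.50 and 0.58 in Ezh1-null tamoxifen, with a change of 0.64 ± 0.09 (adjusted p = 0.0198). Trim25, a ligase that activates the RNA sensor Rig-I, read -0.36 and -0.25 in Ezh1-present oil, 0.004 and -0.09 in Ezh1-present tamoxifen, 0.16 and -0.004 in Ezh1-null oil and 0.52 and 0.64 in Ezh1-null tamoxifen, with a change of 0.63 ± 0.11 (adjusted p = 0.0287). In both the doubly deleted pair stood above the other 6 libraries. Ifi35, a regulator of innate signalling, read -0.03 and 0.06 in Ezh1-present oil, -0.26 and 0.0006 in Ezh1-present tamoxifen, -0.30 and -0.0006 in Ezh1-null oil and 0.48 and 0.66 in Ezh1-null tamoxifen, with a change of 0.70 ± 0.16 (adjusted p = 0.0494). Sp100, a component of nuclear bodies, read -0.08 and -0.42 in Ezh1-present oil, -0.56 and -0.38 in Ezh1-present tamoxifen, 0.08 and 0.19 in Ezh1-null oil and 0.39 and 0.15 in Ezh1-null tamoxifen, with a change of 0.74 ± 0.16 (adjusted p = 0.047). Neither call held in any of the 8 leave-one-out fits.

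Of the 38 genes 31 were called in at least 1 of the 6 comparisons (81.6%, against 5420 of all 18051 tested genes, or 30%). The other 7 were Cmpk2, Eif2ak2, Mx2, Parp14, Parp9, Stat2 and Uba7. Parp14, an ADP-ribosyltransferase, came closest after tamoxifen, with 1.32 ± 0.23 (adjusted p = 0.0517) in Ezh1-null cells. For loss of Ezh1, Cmpk2 gave 1.17 ± 0.27 (adjusted p = 0.0513) after tamoxifen and Parp9 gave 0.49 ± 0.13 (adjusted p = 0.0533) in oil. These genes are not shown to be without change at this number of libraries.

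The members varied more between the Ezh1-present tamoxifen libraries than in any other group. Replicate 2 lay above replicate 1 for 33 of the 38 genes, against 50.4% of all tested genes. The median over members of the SD in that group was 0.31, against 0.14 over all tested genes, while in the other 3 groups the members' medians were 0.15, 0.17 and 0.13. Ifi44 was 1.58 higher in replicate 2, Isg20 1.42 and Samd9l 1.18. In Ezh1-null oil replicate 1 lay above replicate 2 for 27 genes, and in Ezh1-null tamoxifen replicate 2 lay above replicate 1 for 26, each against 49.2% of all tested genes above in replicate 2.

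The rest of the interferon pathway was counted in 8 lists. Of 21 listed interferon genes 6 had rows and 5 could be tested. Ifnb1, the first type I interferon made in many cells, lay at the floor in 6 libraries and was counted at about 1.72 and 2.0 reads in the Ezh1-null tamoxifen libraries, too few for a fold change, although the test called it there (adjusted p = 0.0167). Libraries at the floor cannot vary, which can make such a p too small. The type II interferon Ifng had a mean change of 0.42 ± 0.27 (adjusted p = 0.41). None of the 11 tested genes of receptors and Jak-Stat signalling was called by limma in the mean tamoxifen change, and Ifnar1 and Ifnar2, the type I receptor chains, had mean changes of -0.27 ± 0.08 and -0.24 ± 0.10. At an unadjusted limma p under 0.05 there were 3 of the 11, near the 24.6% of all tested genes.

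The 7 interferon regulatory factors outside the members held no limma call in the mean tamoxifen change, and 1 had an unadjusted p under 0.05. Irf5, a factor of inflammatory signalling, fell with loss of Ezh1 in oil, with a change of -1.06 ± 0.12 (adjusted p = 0.00566). It was the 1 call among these 7 in oil, against 24.9% of all tested genes (12.5% higher, 12.4% lower). Brakes on the pathway held none of 7 in the mean tamoxifen change (3 at an unadjusted p under 0.05), while Socs1, which blocks Jak kinases, was higher without Ezh1 by 0.83 ± 0.10 (adjusted p = 0.0066) in oil. The calls of loss of Ezh1 in this list went both ways: in oil Irf2bp2 was also called, at 0.47 ± 0.10 (adjusted p = 0.0306), and Ptpn6, a phosphatase, at -0.79 ± 0.12 (adjusted p = 0.0115), and after tamoxifen Socs1 at 0.45 ± 0.10 (adjusted p = 0.0498) and Socs3 at -1.67 ± 0.36 (adjusted p = 0.046). Of the 7 brakes 2 were thus called higher and 1 lower in oil, and 1 each way after tamoxifen. After tamoxifen 6.77% of all tested genes were called higher and 5.44% lower. Nothing particular to the regulatory factors or the brakes is read from these counts of Ezh1 loss. Sensors and adaptors of nucleic acids held 3 of 15 in the mean change: Dhx58, a relative of Rig-I, at 0.67 ± 0.09 (adjusted p = 0.0263), Zbp1, a sensor of Z-form nucleic acid, at 1.57 ± 0.22 (adjusted p = 0.027), and Ifih1, the sensor of long double-stranded RNA, at 0.85 ± 0.15 (adjusted p = 0.0429).

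The Oas family, enzymes that sense double-stranded RNA and make a small nucleotide messenger, held 6 of 9, with a median mean change of 1.16 against 0.0101 over all tested genes. Oas3 read -1.51 and -1.23 in Ezh1-present oil, -0.17 and 0.21 in Ezh1-present tamoxifen, 0.05 and -0.05 in Ezh1-null oil and 1.96 and 2.01 in Ezh1-null tamoxifen. Its change was 1.39 ± 0.17 (adjusted p = 0.0428) in Ezh1-present and 1.98 ± 0.17 (adjusted p = 0.00884) in Ezh1-null cells. Oasl2, a relative with a ubiquitin-like end, changed by 2.42 ± 0.20 (adjusted p = 0.0109), Oas1a by 0.83 ± 0.08 (adjusted p = 0.0128) and Oas2 by 1.16 ± 0.15 (adjusted p = 0.0226). The Oas1 genes are related in sequence, so some of their reads may be split between rows, which was not tested. Of 12 genes that respond to interferon gamma 4 rose in the mean change, namely the chemokine Cxcl10 at 1.68 ± 0.21 (adjusted p = 0.0214), the GTPases Igtp at 0.79 ± 0.10 (adjusted p = 0.0226) and Irgm1 at 0.67 ± 0.10 (adjusted p = 0.0325), and Ciita, which drives class II genes, at 2.53 ± 0.41 (adjusted p = 0.0357). Irf1, central to that response, had a mean change of -0.08 ± 0.09 (adjusted p = 0.608). Of 4 other genes of the Isg15 pathway 1 was called, Ube2e2, at 1.85 ± 0.20 (adjusted p = 0.0159). Of all tested genes 4.28% were called higher in the mean change, the share to set beside the counts of these lists.

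Markers of other blood cells also moved with the groups, and their part in the results above was not tested. Values are centred for each gene, so a list is described by its median over genes in each library and not by a summed level. The median of 12 T and NK cell markers was -2.13 and -2.08 in Ezh1-present oil, 0.94 and 2.22 in Ezh1-present tamoxifen, -0.66 and -0.79 in Ezh1-null oil and 0.49 and 0.55 in Ezh1-null tamoxifen. This list was called higher for 6 of 12 genes in the mean tamoxifen change (Cd3d, Cd3e, Gzmb, Il2rb, Klrd1 and Nkg7), against 4.28% of all tested genes. Cd3e lay at the floor in both Ezh1-present oil libraries and in Ezh1-null oil replicate 2. Gzma and Gzmb, granzymes of killer cells, lay at the floor in replicate 1 of both oil groups. Like the interferon-stimulated genes, this list was higher in replicate 2 than in replicate 1 of the Ezh1-present tamoxifen group, but its highest libraries were those 2 and not the doubly deleted pair. Being higher in that replicate 2 was not particular to T and NK cells. Every other marker list but that of c-kit+ leukaemia cells shared it, with medians of 0.53 and 1.92 for platelets and 0.61 and 1.57 for stromal cells. Plasmacytoid dendritic cells, a main source of type I interferon, had a median over 9 markers of -0.19 and -0.08 in Ezh1-present oil, 0.33 and 0.56 in Ezh1-present tamoxifen, -0.25 and -0.74 in Ezh1-null oil and -0.69 and -0.32 in Ezh1-null tamoxifen, lowest in both Ezh1-null groups, and 1 of the 9 (Klk1) was called after tamoxifen.

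Monocyte and macrophage markers were called higher for 4 of 11 genes and lower for 1 in the mean tamoxifen change, with medians of 0.16 and 0.30 in Ezh1-present oil, 1.04 and 1.63 in Ezh1-present tamoxifen, -0.46 and -0.40 in Ezh1-null oil and -0.17 and -0.51 in Ezh1-null tamoxifen. Mature neutrophil markers, none of 10 called in the mean tamoxifen change (1 at an unadjusted limma p under 0.05), had medians of -2.89 and -2.89 in Ezh1-present oil, -1.93 and -0.33 in Ezh1-present tamoxifen, 0.58 and 1.20 in Ezh1-null oil and 1.76 and 0.36 in Ezh1-null tamoxifen, and 6 of the 10 were higher without Ezh1 in oil. B cell markers, none of 8 called in that change (2 unadjusted), had medians of -1.31 and -2.39 in Ezh1-present oil, -1.86 and -1.36 in Ezh1-present tamoxifen, 3.62 and 2.75 in Ezh1-null oil and 2.37 and 1.15 in Ezh1-null tamoxifen, with 6 of 8 higher without Ezh1 in oil. Erythroid markers had medians of -1.98 and -1.21 in Ezh1-present oil, -0.45 and 2.07 in Ezh1-present tamoxifen, 0.10 and 1.62 in Ezh1-null oil and 0.11 and -0.19 in Ezh1-null tamoxifen, none of 9 called in it (1 unadjusted). Platelet and stromal markers held none of 8 each, with 5 and 4 at an unadjusted limma p under 0.05, against 24.6% of all tested genes. The markers of c-kit+ leukaemia cells themselves had medians of -0.35 and -0.38 in Ezh1-present oil, -0.28 and -0.30 in Ezh1-present tamoxifen, 0.31 and 0.52 in Ezh1-null oil and 0.35 and 0.29 in Ezh1-null tamoxifen, with 1 of 12, Meis1, called lower in the mean tamoxifen change and without Ezh1 in oil 5 of 12 higher (against 12.5% of all tested genes) and 1, Meis1, lower. In that same comparison T and NK cell markers were called higher for 4 of 12 and lower for 1, plasmacytoid markers for 1 and 3 of 9, and monocyte and macrophage markers for 3 and 6 of 11. Of all tested genes 12.5% were called higher and 12.4% lower in it, and 4.28% and 1.03% in the mean tamoxifen change.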

How the data were processed

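Gene-level RNA sequencing values of 8 libraries in 4 groups of 2 were analysed, and labels (genotype and treatment) set the groups. Libraries were made with the Illumina TruSeq kit and the genome build was mm10, per the submitters' processing notes and protocols; for aligner, read counter and scaling, nothing is given in the sources used here. The authors deposited fold-change tables; per the file headers, these kept expression between percentiles 20 and 100. The deposited library columns hold log2 values: normalized reads, raised to 1 where lower, then centred at each gene's median (largest absolute row median 9.55e-07), and the deposited log2 fold changes equalled the differences of group means within 5.4e-07. The authors' fold ratios were not used. Total counts were not recovered: only 67.6% to 73.6% of low values lay within 0.01 of a whole read.

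The fit used limma 3.58.1 in R 4.3.3 on 18051 of 31574 rows, those above the floor in at least 2 libraries (12530 had none and 993 had 1), with 1 coefficient per group, empirical Bayes moderation without trend (4 residual and 1.24 prior degrees of freedom) and Benjamini-Hochberg adjustment. The script was tested on simulated data. With 2 libraries against 2 the smallest exact permutation p is 0.333, so none was used. Tables were handled in pandas 2.3.3. Members, gene lists, promoter motifs and the rule for naming genes (all members, with library values where called, and up to 4 genes with the smallest p per pathway list) were chosen with earlier results of these data known. Alternatives were an eBayes trend, quantile normalization, library medians at 0, other filters, a replicate block, fits of only 2 groups and leaving out each library.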

Additional observations from a re-analysis of the deposited data

Results flagged for a closer look

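In 4 genes the libraries of the groups moved in opposite directions in 2 comparisons, without overlap in either, while the difference itself did not pass the limma interaction test. Uba7, the enzyme that activates Isg15, was lower after tamoxifen in both Ezh1-present libraries and higher in both Ezh1-null libraries, and likewise lower without Ezh1 in oil and higher without it after tamoxifen, with a difference of 0.66 (adjusted p = 0.262). Ifit2 was higher after tamoxifen in Ezh1-present cells and lower in Ezh1-null cells, with a difference of -1.10 (adjusted p = 0.234). Parp14 was lower without Ezh1 in oil and higher after tamoxifen, with a difference of 1.25 (adjusted p = 0.2). Lgals3bp was also lower without Ezh1 in oil and higher after tamoxifen, with a difference of 0.83 (adjusted p = 0.349).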

How the results depend on the processing

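Under the eBayes trend, at least 4 libraries above the floor and library medians at 0, all 64 calls of a member in a comparison held. Quantile normalization kept 54, the replicate block 32, no filter 25, fits of only the 2 groups 11 of 46, and leaving out 1 library 227 of 512. With no filter the members called were 0 (tamoxifen, Ezh1 present), 4 (tamoxifen, Ezh1-null), 8 (mean), 7 (Ezh1 loss, oil) and 6 (Ezh1 loss, tamoxifen), and all genes called 46, 215, 346, 55 (interaction) and 1187 (Ezh1 loss, tamoxifen). With only the 2 groups they were 0, 3 and, for Ezh1 loss after tamoxifen, 0, and all genes 0, 240, 2531 (Ezh1 loss, oil) and 27. Quantile normalization moved the members' median change to 0.87 in Ezh1-null cells and 0.60 in the mean. The interaction called 86 genes, but 8 with the trend, 37 after quantile normalization and 14 with at least 4 libraries above the floor.

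Replicate numbers did not pair the libraries (correlations of deviations between same-numbered libraries -0.062 to 0.079). With the replicate block the members called were 0, 5 and 12 after tamoxifen (Ezh1 present, Ezh1-null, mean), 9 in Ezh1 loss in oil and 8 after tamoxifen, and all genes 23, 364, 556, 5 (interaction) and 1179 (Ezh1 loss, tamoxifen).

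Leaving out each library in turn gave ranges in the order tamoxifen in Ezh1-present cells, in Ezh1-null cells, mean, interaction, Ezh1 loss in oil and after tamoxifen. Members called were 0 to 6, 3 to 10, 4 to 18, 0 to 0, 2 to 12 and 0 to 10. Their median changes were 0.30 to 0.72, 0.93 to 1.24, 0.62 to 0.97, 0.28 to 0.58, 0.45 to 0.54 and 0.63 to 0.86. All genes called were 24 to 404, 176 to 469, 249 to 889, 17 to 98, 1707 to 4004 and 337 to 1323.

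Signs reversed in 27 of 228 pairs of member and comparison, none of them called. After quantile normalization these were Ifitm1 at -0.077 (tamoxifen change, Ezh1 present), Ifitm2 at -0.20 (tamoxifen change, Ezh1 present), Ifitm2 at -0.019 (tamoxifen change, Ezh1-null), Ifitm2 at -0.11 (mean tamoxifen change), Mx2 at 0.050 (Ezh1 loss, oil) and Ifit3 at 0.10 (Ezh1 loss, tamoxifen). Without 1 library the reversed changes ranged as follows. In the tamoxifen change of Ezh1-present cells they were Ifitm1 -0.099 to 0.16, Ifitm2 -0.12 to 0.16, Mx1 -0.065 to 0.41, Eif2ak2 -0.015 to 0.53 and Parp14 -0.038 to 0.18. In the tamoxifen change of Ezh1-null cells they were Stat2 -0.030 to 0.10 and Samd9l -0.51 to 0.19, while Ifitm2 stayed above 0, at 0.025 to 0.16. In the mean tamoxifen change they were Uba7 -0.073 to 0.068, Ifitm2 -0.013 to 0.13 and Sp100 -0.12 to 0.046. In the interaction they were Ifit1 -0.23 to 0.78, Ifitm2 -0.065 to 0.21, Cmpk2 -0.16 to 0.57, Eif2ak2 -0.060 to 0.49, Parp9 -0.025 to 0.21, Dtx3l -0.040 to 0.21, Ifi44 -1.55 to 1.64, Epsti1 -0.43 to 0.13 and Tor3a -0.19 to 0.12. In Ezh1 loss in oil they were Mx2 -0.32 to 0.26, Trim30a -0.026 to 0.11 and Ifi44 -0.42 to 2.78. In Ezh1 loss after tamoxifen they were Stat2 -0.095 to 0.038, Ifit2 -0.094 to 0.58, Ifit3 -0.40 to 0.39 and Mx1 -0.023 to 0.36.

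Depth limits genes near the floor such as Ifi44, and no total count per library was available.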
